A study of Mus musculus with 12 samples.

Results

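The genes described here are those that load peptides onto major histocompatibility complex (MHC) class I molecules, together with the inducible subunits of the proteasome. They are H2-K1, H2-D1, B2m, Tap1, Tap2, Tapbp, Psmb8, Psmb9, Psmb10 and Nlrc5, taken by symbol from the deposited expression tables, and all 10 were found among the 55487 genes of each table. RNA came from cutaneous wounds of male C57BL/6JNarl mice, 6 weeks old, that carried 2 full-thickness punch wounds each. The sham group received Pluronic F127 gel alone and the CAP group 10 µM capsaicin (CAP, the pungent compound of chili peppers) in that gel, once a day on the wound. There were 3 libraries of each group at day 3 and 3 at day 6, so that the gel was common to all 12 libraries and unwounded skin was not among them. The sources used here do not tell whether some libraries come from the same mouse. The n is therefore one of libraries, and p values measure the spread between them, which may be partly technical. Values are TPM, transcript abundances scaled to length and to the same total in every library, so that genes can be compared with each other.

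Class I molecules show fragments of a cell's own proteins at its surface, where CD8+ T cells and natural killer (NK) cells read them. The proteasome cuts the proteins, the TAP transporter carries the peptides into the endoplasmic reticulum, and tapasin holds an empty class I molecule at the transporter until a peptide fits. Almost every nucleated cell makes these proteins, and interferons, interferon-γ above all, raise them together and exchange the standard catalytic subunits of the proteasome for inducible ones. In skin, keratinocytes, fibroblasts, vessels and the leukocytes that enter a wound can all contribute.

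In the coordinates of the deposited tables (mm10, GRCm38), which equal those of GENCODE release M21 for all 10 genes, 7 genes lie on chromosome 17 between 33915899 and 35267499, in and beside the mouse MHC. H2-K1 (ENSMUSG00000061232; 33996017 to 34000347, minus strand) and H2-D1 (ENSMUSG00000073411; 35262730 to 35267499, plus strand) encode class I heavy chains. Tapbp (ENSMUSG00000024308; 33915899 to 33929292) encodes tapasin. Psmb9 (ENSMUSG00000096727; 34181987 to 34187764), Tap1 (ENSMUSG00000037321; 34187553 to 34197225), Psmb8 (ENSMUSG00000024338; 34197721 to 34201454) and Tap2 (ENSMUSG00000024339; 34203527 to 34216321) follow each other within 34335 bases. B2m (ENSMUSG00000060802), the light chain of every class I molecule, lies on chromosome 2 from 122147686 to 122153083. Psmb10 (ENSMUSG00000031897; 105935735 to 105938444) and Nlrc5 (ENSMUSG00000074151; 94434356 to 94527272) lie on chromosome 8, and Nlrc5 encodes the transactivator of class I genes. All 10 are annotated as protein coding.

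Parts of these genes are hard to assign. Of the 31-base stretches in its transcripts, H2-K1 shared 22.8% and H2-D1 26.7% with other genes, most often with each other, which leaves it uncertain how their reads were divided, while the other 8 genes shared at most 4.6%. The Psmb9 and Tap1 loci overlap by 212 bases on opposite strands, B2m overlaps Patl2 on the other strand and Tapbp overlaps Zbtb22 on its own. On the other strand, Tapbp overlaps Gm19412, Tap2 Gm20496 and Gm15821, Psmb8 Gm20496, Psmb10 Gm16156 and Nlrc5 9330175E14Rik. Nlrc5 also overlaps Mir7072 on its own strand, and H2-K1 and H2-D1 overlap no annotated gene. The sources used here do not state whether counting used strand, and without it reads of overlapping stretches cannot be told apart.

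The promoters are shown because class I heavy chains and the light chain are known to share an upstream module on which NLRC5 acts through DNA-bound partners. Promoter sequences of 8 of the 10 genes were in a RefSeq table of GRCm38.p6, those of Tap2 and Nlrc5 not being among them. Within 250 bases before the start site, both strands were searched for TGACG (a core bound by CREB/ATF factors), followed after exactly 20 bases by ATTGG (the reverse of a CCAAT box). H2-K1, H2-D1 and B2m carried it on their own strand, beginning 41, 101 and 78 bases before the RefSeq start. With a match on either strand counted, 25 of 27025 promoters in all carried it (0.0925%). The RefSeq start of H2-D1 lies inside the gene as the deposited tables place it, and all 250 bases searched there fall in annotated exons of longer transcripts. The matches, with both motifs in capitals, lie at chr17:34000359-34000388 (minus), chr2:122147609-122147638 (plus) and chr17:35262993-35263022 (plus). The stretch of Tap1 at chr17:34187470-34187499 (plus) is given beside them because it begins with the first motif, 86 bases before the start, and lacks the second.
H2-K1: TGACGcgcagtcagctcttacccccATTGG
B2m: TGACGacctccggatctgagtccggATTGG
H2-D1: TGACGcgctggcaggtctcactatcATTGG
Tap1: TGACGacagagggtcctgccctcaatctgg

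The longer stretches of H2-K1 (chr17:34000348-34000597, minus strand, 250 bases up to the start) and B2m (chr2:122147437-122147685, plus strand, 249 bases) show where that module sits. The first block of capitals in each is a match to AANNGAAA, a core of sites for interferon regulatory factors, which reads on the opposite strand in H2-K1 and on the gene's own strand in B2m. The other capitals are the 2 motifs above.
H2-K1: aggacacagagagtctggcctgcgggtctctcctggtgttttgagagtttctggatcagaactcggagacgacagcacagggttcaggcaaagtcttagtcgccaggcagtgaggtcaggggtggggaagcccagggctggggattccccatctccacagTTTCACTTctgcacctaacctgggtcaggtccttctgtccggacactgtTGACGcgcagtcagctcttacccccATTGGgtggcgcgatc
B2m: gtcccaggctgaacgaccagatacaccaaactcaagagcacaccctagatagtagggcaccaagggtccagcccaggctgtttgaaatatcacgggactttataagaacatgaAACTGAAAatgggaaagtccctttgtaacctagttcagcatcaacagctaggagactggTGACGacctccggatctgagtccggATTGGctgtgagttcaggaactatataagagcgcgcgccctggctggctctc

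Of the 8 promoters, 3 held AANNGAAA (H2-K1, H2-D1 and B2m), as did 21.6% of all promoters. The longer form GAAANNGAAA, which contains it, was found in B2m alone of the 8 and in 3.04% of all promoters. TGACG was found in 5 of the 8 (17.9% of all) and CCAAT in 6 of the 8 (34.5% of all), and both form parts of the spaced module. Between the RefSeq starts of Psmb9 and Tap1, on opposite strands, lie the 225 bases of chr17:34187331-34187555, so that the searched windows of these genes overlap. The TGACG match of Tap1 (86 to 82 bases before its start) and that of Psmb9 (144 to 140) are the same bases. So are their CCAAT matches (222 to 218 and 8 to 4). Each of these sites is therefore counted for Tap1 and again for Psmb9 in the counts above. The RefSeq start of Psmb9 and its window lie inside the gene as the deposited tables place it. The overlap of the Psmb9 and Tap1 loci given above is one of the deposited coordinates. The motifs were chosen after the expression values were known, and a match describes letters in a window.

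The depth of the libraries is unknown from TPM, and no counting error can be given. Each library had 18533 to 19325 genes at 0.3 TPM or more, and the 10 most abundant genes took 8.27% to 14.12% of its TPM. CAP day 6 replicate 2 had the highest of these shares and stood apart by its markers. Its summed TPM was 75.33 over 6 endothelial markers, against 187.7 and 197.2 in the other CAP libraries of that day, and 470.6 over 5 genes of all leukocytes, against 671.9 and 1055. It was also the lowest of the 6 day 6 libraries in 8 of the 10 class I genes, and day 6 differences of the 10 genes, and of the lists set beside them, are therefore given with and without it. At day 3, CAP replicate 2 was the lowest of 6 libraries in 8 of the 10 genes.

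The 10 genes together took 0.483% to 0.737% of the TPM of a library. B2m was the most abundant, with a mean of 2309 TPM over the 12 libraries, followed by H2-D1 (mean 1684 TPM) and H2-K1 (mean 1447 TPM). Tapbp came next at 177.5 TPM, with its whole range below that of H2-K1 and above that of Tap1. Tap1 (60.34 TPM) and Psmb8 (54.88 TPM) were close, and Tap1 was the higher in 10 of 12 libraries. Psmb10 (37.58 TPM), Tap2 (37.37 TPM), Nlrc5 (30.51 TPM) and Psmb9 (17.29 TPM) followed. Psmb10 and Tap2 did not differ beyond their spread, since Psmb10 was the higher in 4 of 12 libraries, whereas Nlrc5 was above Psmb9 in all 12. The order of the heavy and light chains was the same in every library. Psmb9 varied most, by 2.56-fold between its lowest and highest library, and Nlrc5 least, by 1.48-fold.

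**Figure D1:**
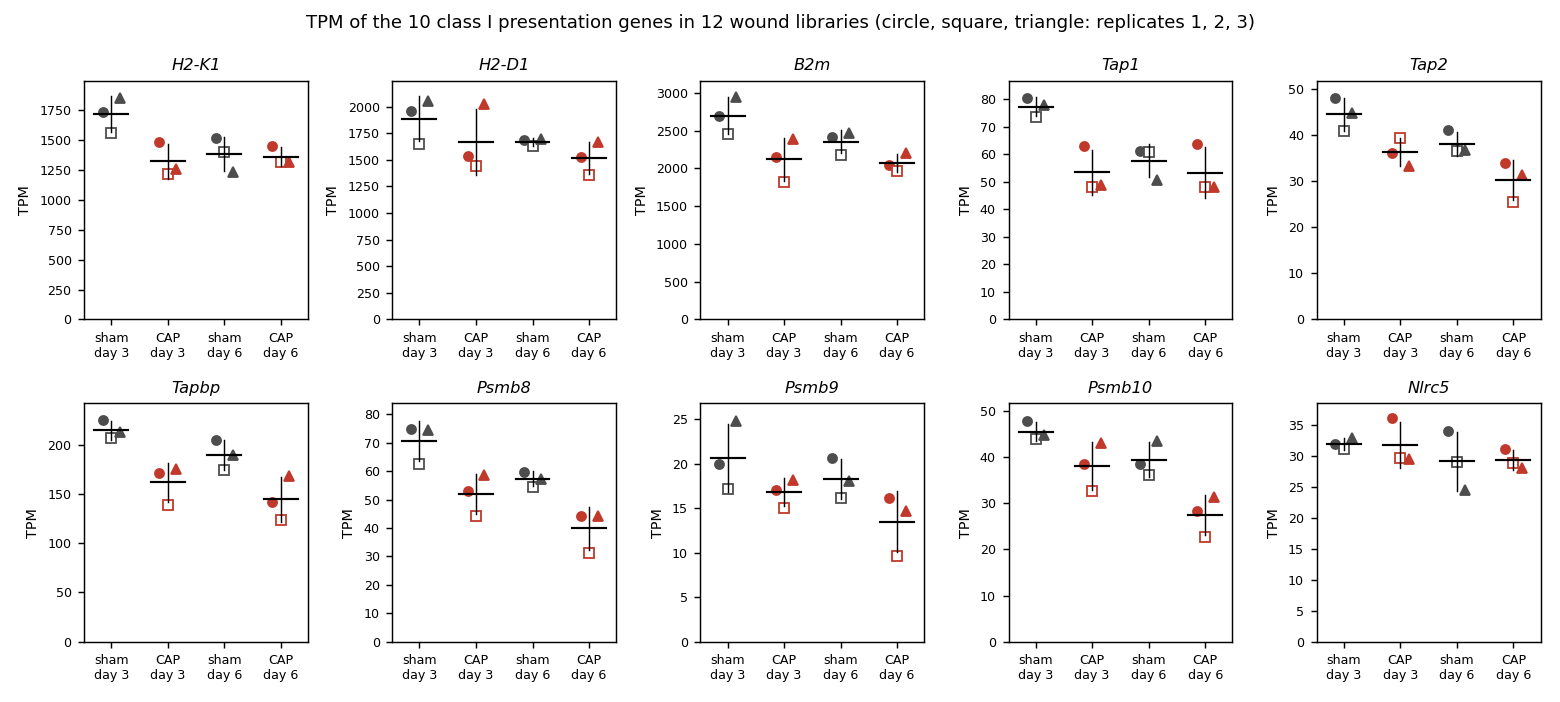
TPM (vertical axes, from 0) of each of the 10 genes in the 4 groups, with 1 point per library (grey, sham; red, CAP), a bar at the group mean and a line for the SD of 3 libraries. At day 3 the CAP points of 7 genes lie wholly below the sham points, at day 6 those of Tapbp, Psmb8, Psmb10 and Tap2 do, and the points of Nlrc5 are mixed at both days.

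At day 3, which asks how CAP bears on the early, inflammatory wound, 10 of the 10 genes had a lower mean in CAP-treated wounds, as did 62.2% of all genes, and none differed by 2-fold. The log2 difference ran from -0.54 (Tap1) to -0.01 (Nlrc5), with a median of -0.32 beside -0.05 over all 18330 genes tested. Tap1, Psmb8 and tapasin had the largest differences. The threshold of the study, an unadjusted p under 0.05 with a 2-fold difference, was passed by 0 of the 10 genes in limma and by 1.16% of all genes in the lower direction. At an unadjusted p under 0.05 alone, 5 of the 10 were lower (H2-K1, Tap1, Tap2, Tapbp and Psmb8), beside 5.14% of all genes. That count became 3 without sham replicate 1 (3.44% of all genes) and also without sham replicate 3 (3.42%), and 6 without sham replicate 2 (5.4%). None, 0 of 10, reached an adjusted p under 0.05 (0.0164% of all genes did). All 3 CAP libraries lay below all 3 sham libraries in 7 of the 10 genes, beside 8.75% of all genes. With 3 libraries against 3, the exact permutation test can give no p below 0.1, which is its value for each of these 7 genes.

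H2-K1, a heavy chain, was at 1736, 1564 and 1857 TPM in the sham libraries of day 3 and at 1488, 1217 and 1262 TPM in the CAP libraries. The groups did not overlap, and the log2 difference was -0.38 ± 0.14 (SE, n = 3 per group; unadjusted p = 0.0308, adjusted p = 0.72, limma). H2-D1, the second heavy chain, was at 1960, 1647 and 2048 TPM against 1538, 1438 and 2020 TPM. Here the third CAP library was as high as the sham group, and the log2 difference of -0.19 ± 0.18 had an unadjusted p of 0.326 in limma. B2m, the light chain, was at 2692, 2451 and 2949 TPM in sham and at 2144, 1823 and 2391 TPM in CAP libraries. Its groups stood apart by a narrow gap, with a log2 difference of -0.35 ± 0.16 and an unadjusted p of 0.0691 (adjusted p = 0.791, limma).

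Tap1, which forms the transporter with Tap2, was at 80.29, 73.46 and 77.73 TPM in the sham group and at 62.94, 48.17 and 48.96 TPM in the CAP group. This was the largest difference among the 10 genes at day 3, with a log2 difference of -0.54 ± 0.12 (0.687-fold; 95% interval -0.83 to -0.25; unadjusted p = 0.00318, adjusted p = 0.5, limma). Tap2 was at 48.04, 40.84 and 44.9 TPM against 36.16, 39.48 and 33.4 TPM. The groups did not overlap, although the highest CAP value was near the lowest sham value, and the log2 difference was -0.29 ± 0.10 (unadjusted p = 0.0258, adjusted p = 0.711, limma). Tapbp was at 225, 206.4 and 212.4 TPM in sham and at 171.2, 138.4 and 175 TPM in CAP libraries. The groups did not overlap, with a log2 difference of -0.42 ± 0.11 (unadjusted p = 0.00827, adjusted p = 0.568, limma).

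Psmb8, the inducible subunit that takes the place of Psmb5, was at 74.68, 62.41 and 74.38 TPM in the sham group and at 52.86, 44.33 and 58.59 TPM in the CAP group. The groups did not overlap, and the log2 difference was -0.44 ± 0.13 (unadjusted p = 0.0121, adjusted p = 0.612, limma). Psmb9, which replaces Psmb6, was at 19.93, 17.18 and 24.74 TPM against 17.1, 15.06 and 18.16 TPM, and its groups overlapped (log2 difference -0.28 ± 0.16, unadjusted p = 0.11, limma). Psmb10, which replaces Psmb7, was at 47.85, 43.91 and 44.7 TPM against 38.51, 32.58 and 42.91 TPM. All its CAP values were the lower ones, with a log2 difference of -0.27 ± 0.12 and an unadjusted p of 0.0586 (adjusted p = 0.777, limma). Nlrc5, the transactivator, was at 31.83, 31 and 32.88 TPM in sham and at 36.01, 29.66 and 29.46 TPM in CAP libraries. The CAP group held both its highest and its lowest value of the day, and its log2 difference of -0.01 ± 0.11 (95% interval -0.27 to 0.24) became 0.04 under either alternative scaling.

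At day 6, the later of the times sampled, 9 of the 10 were lower in the CAP group, as were 65.7% of all genes, Nlrc5 being the exception. Psmb8 and Psmb10 of the immunoproteasome, tapasin and Tap2 had an unadjusted p under 0.05, whereas Psmb9, the heavy chains, B2m, Tap1 and Nlrc5 did not. The log2 difference ran from -0.54 (Psmb8) to 0.02 (Nlrc5), with a median of -0.26, but the median over all 18323 genes was itself -0.12. Relative to that, the median of the 10 genes was -0.14. Median-ratio scaling brought the median of all genes to -0.01 and that of the 10 genes to -0.15, and under it H2-K1 turned from -0.02 to 0.10. The study's threshold was passed by 0 of the 10 genes in limma and by 2.34% of all genes in the lower direction. At an unadjusted p under 0.05, 4 of the 10 were lower (Tap2, Tapbp, Psmb8 and Psmb10), beside 12.5% of all genes, and 0 had an adjusted p under 0.05, nor had any gene (0%). The groups did not overlap in the same 4 genes, beside 18% of all genes. Without CAP day 6 replicate 2, the median was -0.18 (-0.08 over all genes) and 8 genes were lower. Then 2 of the 10 (Psmb8 and Psmb10) had an unadjusted p under 0.05, beside 7.81% of all genes in the lower direction. That count was also 2 without sham replicate 1 (5.24% of all genes) or without sham replicate 3 (6.93%). Over all genes, 429 passed the threshold as lower and 268 as higher, against 289 and 395 with median-ratio scaling and 244 and 406 with quantile normalization. At day 3 these counts were 212 and 78, against 160 and 101 with quantile normalization.

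Psmb8 was at 59.86, 54.56 and 57.31 TPM in the sham libraries of day 6 and at 44.17, 31.21 and 44.16 TPM in the CAP libraries. All CAP values were well below the sham values, with a log2 difference of -0.54 ± 0.15 (0.688-fold; unadjusted p = 0.00982, adjusted p = 0.21, limma) and of -0.37 (unadjusted p = 0.00722) without CAP replicate 2. Psmb10 was at 38.52, 36.16 and 43.5 TPM against 28.36, 22.68 and 31.34 TPM. Its groups did not overlap either, and the log2 difference was -0.53 ± 0.15 (unadjusted p = 0.00898, adjusted p = 0.209, limma), or -0.40 (unadjusted p = 0.0164) without that library. Psmb9 was at 20.67, 16.12 and 18.01 TPM in sham and at 16.18, 9.656 and 14.67 TPM in CAP libraries. The lowest sham value was just under the highest CAP value, and the log2 difference of -0.46 ± 0.21 (unadjusted p = 0.0681, limma) came to -0.24 without CAP replicate 2.

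Tapbp was at 204.7, 174.5 and 189.2 TPM in the sham group of day 6 and at 141.4, 123.2 and 168.6 TPM in the CAP group. The groups did not overlap, with a log2 difference of -0.40 ± 0.14 (unadjusted p = 0.023, adjusted p = 0.227, limma), but the unadjusted p was 0.0578 and the difference -0.29 without CAP replicate 2. Tap2 was at 41.2, 36.68 and 36.71 TPM against 34.09, 25.54 and 31.39 TPM. All CAP values lay below, with a log2 difference of -0.34 ± 0.13 (unadjusted p = 0.0386, adjusted p = 0.243, limma), or -0.22 with an unadjusted p of 0.0871 without that library. Tap1 was at 61.3, 60.68 and 50.63 TPM against 63.85, 48.06 and 48.07 TPM. The highest value of the day was in the CAP group, and the log2 difference of -0.12 ± 0.15 (unadjusted p = 0.454, limma), or -0.05 without CAP replicate 2, was within the spread.

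H2-K1 was at 1521, 1400 and 1232 TPM in the sham group of day 6 and at 1452, 1319 and 1316 TPM in the CAP group. The CAP values lay inside the sham range, and the log2 difference was -0.02 ± 0.14 (95% interval -0.35 to 0.31), turning to 0.0032 without CAP replicate 2. H2-D1 was at 1689, 1626 and 1691 TPM against 1523, 1360 and 1663 TPM, with an overlap through the third CAP library and a log2 difference of -0.14 ± 0.14, or -0.07 without CAP replicate 2. B2m was at 2408, 2178 and 2466 TPM against 2047, 1959 and 2201 TPM. Its groups also overlapped, with a log2 difference of -0.18 ± 0.15 (unadjusted p = 0.247, limma), or -0.15 without that library. Nlrc5 was at 33.9, 29.01 and 24.41 TPM against 31.11, 28.82 and 28.01 TPM, the CAP values lying within the sham range (log2 difference 0.02 ± 0.14, or 0.03 without that library).

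**Figure D2:**
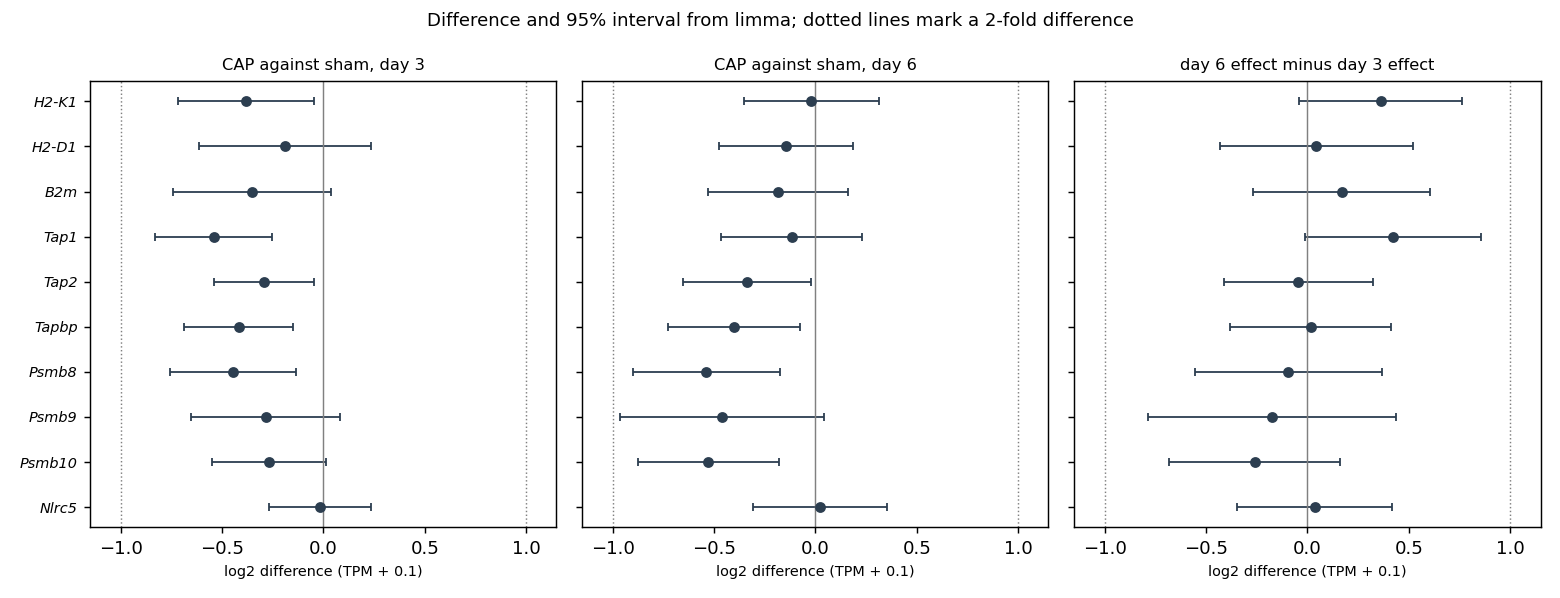
Log2 difference of TPM + 0.1 (horizontal axes) of each gene with its 95% interval from limma, for CAP against sham at day 3, at day 6, and for the day 6 effect minus the day 3 effect. At day 3 the intervals of H2-K1, Tap1, Tap2, Tapbp and Psmb8 lie below 0, at day 6 those of Tap2, Tapbp, Psmb8 and Psmb10, and in the comparison of the days all 10 intervals cover 0.

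Whether the CAP effect differed between the days was tested by the interaction of treatment and day over 20267 genes. None of the 10 genes passed the threshold in limma (0 of 10, beside 2.73% of all genes lower and 2.18% higher) and 0 had an unadjusted p under 0.05 (5.88% lower and 5.43% higher). An adjusted p under 0.05 was reached by 0 of the 10 and by no gene (0%). Other settings gave 0 to 2 genes at an unadjusted p under 0.05, with 2 without CAP day 3 replicate 1 and 1 without CAP day 6 replicate 2 or without CAP day 6 replicate 3. Tap1 came closest, with a difference between the effects of 0.42 ± 0.20 on the log2 scale (95% interval -0.01 to 0.86; unadjusted p = 0.0547, adjusted p = 0.443, limma), and of 0.49 (unadjusted p = 0.0385) without CAP day 6 replicate 2. It was followed by H2-K1 at 0.36 ± 0.18 (unadjusted p = 0.0733). Both were lower in CAP-treated wounds at day 3 and near the sham group at day 6. The median over the 10 genes was 0.03, with 4 of 10 below 0 beside 56.4% of all genes, and the values of the immunoproteasome subunits were -0.09 (Psmb8), -0.18 (Psmb9) and -0.26 (Psmb10), or 0.07, 0.05 and -0.13 without CAP day 6 replicate 2.

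Within the sham group, 10 of the 10 genes were lower at day 6 than at day 3, beside 49.3% of all genes. Their log2 differences lay between -0.43 and -0.14, and the median of -0.20 stood beside 0.00 over all 18368 genes. No gene passed the threshold in limma (0 of 10, beside 1.61% of all genes in the lower direction). At an unadjusted p under 0.05, 3 were lower (H2-K1, Tap1 and Psmb8; 7.91% of all genes), and 0 had an adjusted p under 0.05 (2.29% of all genes). The former count was 1 without sham day 3 replicate 1 (7.97% of all genes), without sham day 3 replicate 3 (6.03%) or without sham day 6 replicate 2 (7.5%). It was 5 without sham day 6 replicate 1 (7.8%). The days did not overlap in 5 (H2-K1, Tapbp, Tap1, Psmb8 and Psmb10; 10.6% of all genes). Tap1 had the largest of these differences, -0.43 ± 0.10 on the log2 scale (unadjusted p = 0.00326, adjusted p = 0.0807). In the CAP group, 9 of the 10 were lower at day 6 (57% of all genes), with a median log2 difference of -0.15 beside -0.05 over all genes. H2-K1, at 0.05, was the exception, and 0 of the 10 passed the threshold in limma (1.52% of all genes did, in the lower direction) or had an adjusted p under 0.05 (0.00549% of all genes). Only Psmb10 had an unadjusted p under 0.05 there (1 of 10, beside 5.91% of all genes), at -0.47 ± 0.16 (unadjusted p = 0.0242, adjusted p = 0.369) and at -0.34 (unadjusted p = 0.0625) without CAP day 6 replicate 2. The count was 0 without that library (3.67% of all genes), without CAP day 3 replicate 1 (4.57%) or without CAP day 3 replicate 3 (5.09%). It was 2 without CAP day 3 replicate 2 (3.27%). The days did not overlap in Psmb8 and Psmb10 (2 of 10, beside 9.63% of all genes). B2m and Tap1, at -0.03 and 0.00, turned to 0.01 and 0.04 with median-ratio scaling. These comparisons share libraries with those of CAP against sham.

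The standard catalytic subunits give a yardstick inside each library, since a ratio of 2 genes does not depend on its scaling. Psmb5, the standard chymotrypsin-like subunit, was at 121.8, 130.1 and 125.4 TPM in sham and at 143.1, 141.5 and 129.7 TPM in CAP libraries of day 3. Psmb6 was at 202.1, 213.8 and 207.2 TPM against 207.9, 246.7 and 300.2 TPM, and Psmb7 at 156, 159.5 and 156.9 TPM against 169.4, 161.2 and 145.8 TPM. All 3 had a mean at or above that of the sham group, with log2 differences of 0.13, 0.26 and 0.01, and none had an unadjusted p under 0.05 at day 3 or at day 6, where the differences were -0.14, -0.16 and 0.04.

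The geometric mean of the 3 ratios (Psmb8 to Psmb5, Psmb9 to Psmb6 and Psmb10 to Psmb7) was 0.265, 0.22 and 0.272 in the sham libraries of day 3 and 0.19, 0.157 and 0.2 in the CAP libraries. The immunoproteasome subunits were thus lower against their standard counterparts in every CAP library, 0.723-fold on average (log2 -0.47; exact permutation p = 0.1, 2-sided, the smallest value possible). Both parts of the ratio moved at day 3. The summed standard subunits were at 479.9 to 503.4 TPM in sham and, without overlap, at 520.5 to 575.7 TPM in CAP libraries. At day 6 these sums overlapped (480.5 to 511.3 TPM against 454.4 to 486.6 TPM). At day 6 the ratio was 0.232, 0.193 and 0.222 in sham and 0.184, 0.119 and 0.187 in CAP libraries. Again no CAP library reached a sham library (0.744-fold, log2 -0.43, exact permutation p = 0.1), and without CAP day 6 replicate 2 the log2 difference was -0.21 (exact permutation p = 0.2). Of the single ratios, Psmb8 to Psmb5 did not overlap at either day, Psmb10 to Psmb7 did not overlap at day 6 alone, and Psmb9 to Psmb6 overlapped at both. Ratios were computed for 10 pairs or sums of genes in 4 comparisons, and none can reach a p under 0.1 in this design.

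**Figure D3:**
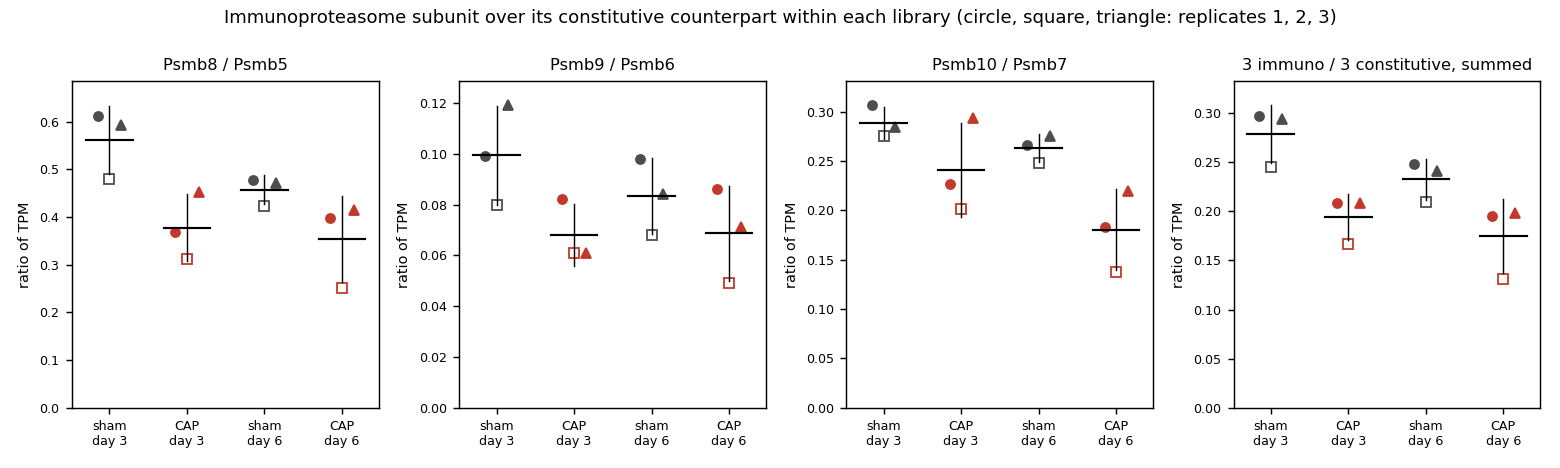
Ratio of the TPM of each immunoproteasome subunit to that of its standard counterpart, and of their sums, within each library (vertical axes, from 0), with 1 point per library, a bar at the mean and a line for the SD of 3 libraries. In the summed ratio the CAP points lie between 0.167 and 0.208 at day 3 and between 0.131 and 0.198 at day 6, below all sham points of the same day.

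Other ratios were compared in the same way. B2m over the sum of H2-K1 and H2-D1 lay between 0.687 and 0.844 in all 12 libraries, and its groups overlapped at both days. At day 3 that overlap was narrow, with the lowest sham value at 0.728 and the highest CAP value at 0.729. Tap1 was 2.70 to 4.98 times as abundant as Psmb9, with which it shares a promoter region, and this ratio overlapped between the groups at both days. Its log2 difference of CAP against sham was -0.26 at day 3 and 0.35 at day 6. H2-K1 over H2-D1 was 0.625 in CAP day 3 replicate 3 and between 0.729 and 0.97 in the other libraries. That library thus had the lowest share of H2-K1, within the uncertainty of reads shared by the heavy chains.

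The other genes of the pathway were taken from lists. Of 17 further class I heavy chains, among them H2-Q and H2-T genes, 15 passed the filter on low values at day 3. Of these, 10 had a lower mean in the CAP group (beside 62.2% of all genes), 0 passed the threshold and 3 had an unadjusted p under 0.05 (H2-Q4, -0.42, H2-Q7, -0.29, and H2-T22, -0.35 on the log2 scale, beside 5.14% of all genes), with a median of -0.24. At day 6, 14 of 15 were lower (beside 65.7% of all genes), with a median of -0.34, and H2-Q6 fell past the threshold (54.28, 38.87 and 27.83 TPM in sham against 22.22, 13.09 and 20.64 TPM in CAP libraries; 0.469-fold, unadjusted p = 0.00706, adjusted p = 0.208, limma). Without CAP day 6 replicate 2 it was 0.552-fold (unadjusted p = 0.018), which does not pass the 2-fold limit, and the median of the list was -0.25. These reads are uncertain, since of their 31-base stretches H2-T22 shares 51% with other genes, H2-Q6 50.3%, H2-Q7 39.1% and H2-Q4 38.4%. In the peptide loading and trimming list, which holds the chaperones of the loading complex, 0 of 8 genes passed the threshold at day 3 or day 6, and their median was -0.06 and then -0.29 (-0.20 without CAP day 6 replicate 2). Its lowest member at day 6 was Hspa5 (BiP, the main chaperone of the endoplasmic reticulum), at -0.67 ± 0.14 (unadjusted p = 0.00192, adjusted p = 0.205, limma), or -0.57 without CAP day 6 replicate 2. With Hspa5, 4 of the 8 were lower at an unadjusted p under 0.05 at day 6, beside 12.5% of all genes. The others were, in order of p, Sec61a1 at -0.37 (unadjusted p = 0.0102), Calr at -0.48 (unadjusted p = 0.0161) and Canx at -0.28 (unadjusted p = 0.043). Without CAP day 6 replicate 2, Canx had an unadjusted p of 0.108, and 3 of the 8 remained, beside 7.81% of all genes. The 12 core proteasome subunits, which are common to both kinds of proteasome, had medians of -0.02 and -0.14 with 0 past the threshold, and the 4 proteasome activators -0.10 and -0.07 with 0 past it. Without CAP day 6 replicate 2, the day 6 medians were -0.14 and -0.08.

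**Figure D4:**
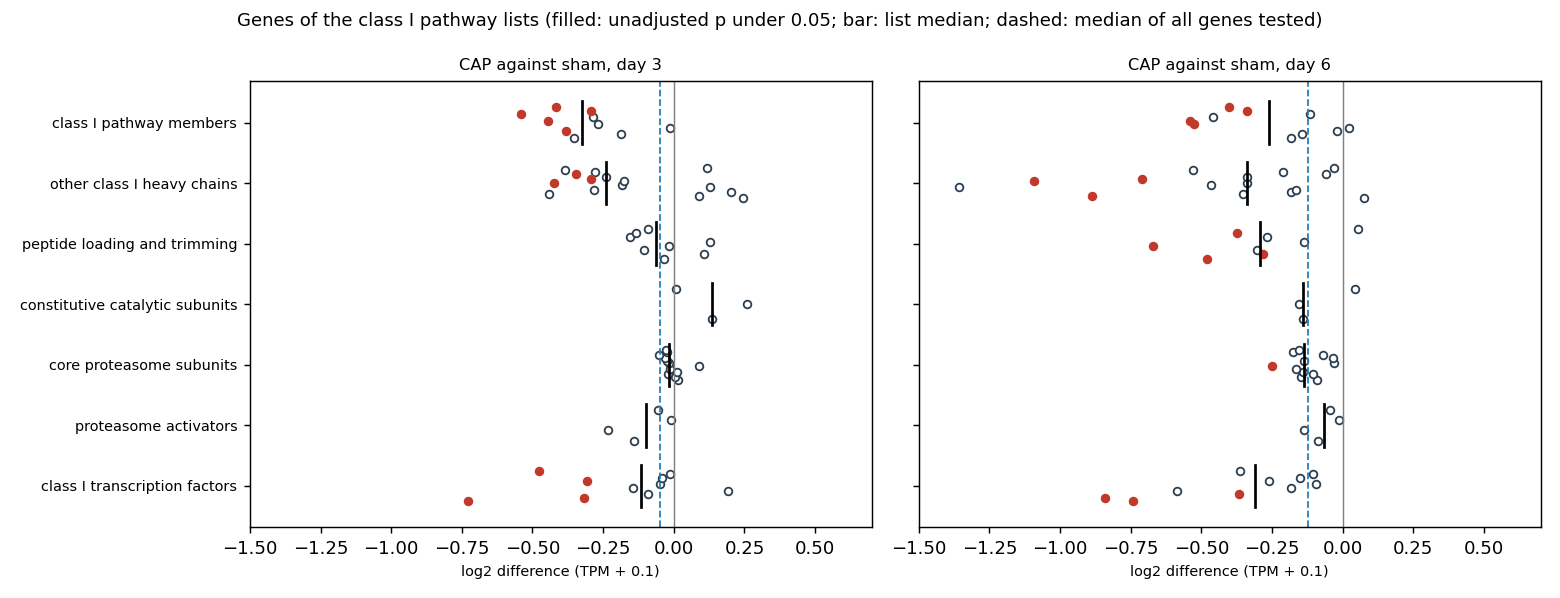
Log2 difference of CAP against sham (horizontal axes) for every tested gene of the 10 class I genes and of 6 further lists, at day 3 and day 6. Filled points have an unadjusted p under 0.05 in limma, bars are list medians, and the dashed line is the median of all genes tested (-0.05 at day 3 and -0.12 at day 6). The core proteasome subunits crowd around the dashed line at both days, whereas the bar of the class I genes lies to its left.

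Among 10 transcription factors of class I genes, 9 had a lower mean in the CAP group at day 3 (beside 62.2% of all genes) and 10 at day 6 (beside 65.7%), with 0 past the threshold at either day. Their median was -0.12 at day 3 and -0.31 at day 6, or -0.18 without CAP day 6 replicate 2. Irf1, which binds interferon response sites of class I promoters, was at 43.48, 40.5 and 40.26 TPM in sham and at 33.65, 32.9 and 33.05 TPM in CAP libraries of day 3. Both groups were tight and apart, with a log2 difference of -0.32 ± 0.08 (unadjusted p = 0.00518, adjusted p = 0.535, limma). At day 6 it was at 52.47, 50.44 and 42.02 TPM against 26.05, 21.12 and 34.99 TPM, a wider gap of -0.84 ± 0.20 (unadjusted p = 0.00354, adjusted p = 0.206, limma), or -0.67 (unadjusted p = 0.00678) without CAP day 6 replicate 2. The difference between its effects at day 6 and day 3 was -0.52 ± 0.22 (unadjusted p = 0.0362, adjusted p = 0.428, limma). It was the 1 of the 10 factors lower at an unadjusted p under 0.05 there, beside 5.88% of all genes. That difference is given with all 12 libraries only. Rfx5, which binds the upstream module, had a log2 difference of -0.31 at day 3 (unadjusted p = 0.0419).

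Ciita, the class II counterpart of Nlrc5, was at 11.72, 7.668 and 8.254 TPM in sham and at 7.144, 5.346 and 4.18 TPM in CAP libraries of day 3. Its groups did not overlap, with a log2 difference of -0.73 ± 0.25 (unadjusted p = 0.0217, adjusted p = 0.692, limma), and at day 6 it was -0.74 ± 0.31 (unadjusted p = 0.0472), or -0.49 (unadjusted p = 0.13) without CAP day 6 replicate 2. Nlrc5 over Ciita was between 2.716 and 4.043 in sham and between 5.04 and 7.048 in CAP libraries at day 3, and between 2.115 and 3.277 against 3.378 and 6.145 at day 6. The ratio was thus higher in every CAP library than in any sham library of its day (exact permutation p = 0.1 at each day). Of 9 interferon genes, none passed the filter on low values. Ifng, the interferon-γ gene, had at most 0.407 TPM and was listed at 0.0001 TPM, the stand-in for 0, in 1 CAP library of day 3 and in 1 sham and 1 CAP library of day 6.

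Markers of cell types also differed between the groups, and in bulk RNA fewer cells of a type and less RNA per cell cannot be told apart. Over 12 T and NK cell markers, the summed level was 40.81 to 51.7 TPM in sham and 27.97 to 38.24 TPM in CAP libraries of day 3. Of the 10 tested, 4 fell past the threshold, beside 1.16% of all genes. They were Gzmb (0.277-fold), Gzma (0.291-fold), Ncr1 (0.348-fold) and Trac (0.396-fold), all but the last typical of cytotoxic or NK cells. Cd3e was at -0.01 on the log2 scale, and Cd8a, which defines the T cells that read class I, had at most 0.341 TPM in any library. Over the 10 monocyte and macrophage markers the summed level was 5202 to 7146 TPM against 5597 to 10960 TPM at day 3, of which Lyz2 made up 2641 to 3954 TPM and 3340 to 7576 TPM. By single genes, 7 of 10 had a lower mean (beside 62.2% of all genes), with a median of -0.28. At an unadjusted p under 0.05, 4 were lower (beside 5.14% of all genes). Ccr2 (0.397-fold) and Ly6c2 (0.179-fold), both of inflammatory monocytes, fell past the threshold, and C1qa was at 0.507-fold (unadjusted p = 0.000599). Of 6 fibroblast markers, 6 had a lower mean at day 3 (beside 62.2% of all genes), with a median of -0.48. Among them 3 had an unadjusted p under 0.05 (Col1a1, Col1a2 and Lum, beside 5.14% of all genes) and 0 passed the threshold. The 5 genes of all leukocytes summed to 769.6 to 1068 TPM in sham and to 716.7 to 1254 TPM in CAP libraries at day 3, and to 1041 to 1195 TPM against 470.6 to 1055 TPM at day 6. These sums overlapped at both days, and Laptm5 was their largest part. By single genes, 5 of 5 had a lower mean at day 6 (beside 65.7% of all genes), with a median of -0.74 (-0.46 without CAP day 6 replicate 2). Of these, 3 had an unadjusted p under 0.05 (Coro1a, Cd52 and Cd53, beside 12.5% of all genes) and 0 passed the threshold. At day 3, 3 of 5 were lower (beside 62.2% of all genes), with a median of -0.21. Of the 5 erythroid genes, 5 rose past the threshold at day 3, as did 78 of all 18330 genes. Their summed level was 514.1 to 753.1 TPM in sham and 2356 to 2803 TPM in CAP libraries.

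At day 6 the T and NK cell markers summed to 59.99 to 105.6 TPM in sham and to 73.73 to 91 TPM in CAP libraries, with 0 of 10 past the threshold. Endothelial markers summed to 233 to 320 TPM against 75.33 to 197.2 TPM, with 3 of 6 past the threshold as lower (Pecam1, Cdh5 and Emcn, beside 2.34% of all genes). Of 8 keratinocyte markers, Krt1 (3.63-fold) and Krt10 (3.08-fold) rose past it, as did 268 of all 18323 genes. Ccr2 fell past it again (0.488-fold), and Myh4 of 5 skeletal muscle markers did too. Without CAP day 6 replicate 2, Krt1, Krt10 and Myh4 still passed, whereas Ccr2 (0.682-fold) and the endothelial markers, with 0 of 6, did not. Of 10 monocyte and macrophage markers, 10 had a lower mean at day 6 (beside 65.7% of all genes), with a median of -0.54 (-0.29 without that library). At an unadjusted p under 0.05, 3 were lower (beside 12.5% of all genes), or 2 without that library (beside 7.81%). Neutrophil, fibroblast, dendritic and B cell, erythroid and general leukocyte markers had 0 past the threshold at that day. Still, 6 of 6 neutrophil markers tested had a lower mean, with a median of -1.22 (-0.56 without CAP day 6 replicate 2). So had 5 of 5 erythroid markers, with a median of -1.12 (-0.62 without that library), beside 65.7% of all genes. In both lists 0 had an unadjusted p under 0.05. At day 3 Mmp8 rose past the threshold among 7 neutrophil markers. The part of these cell types in the levels of the 10 class I genes was not tested.

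From library to library, 9 of the 10 genes kept close to each other, and Nlrc5 less so. Psmb8 followed the mean of the other members most closely (Pearson's r = 0.957 over 12 libraries, on the log2 scale), then Tapbp (r = 0.903) and Psmb9 (r = 0.891), while Nlrc5 had r = 0.372. These values describe 12 points that share the 4 groups and the 1 scaling of each library. Among 16044 genes that averaged 1 TPM or more, the 5 outside the lists most like the mean of the 10 were Sp100 (r = 0.986), Ifi211 (r = 0.986), Ifi204 (r = 0.98), Slfn8 (r = 0.978) and Pnp2 (r = 0.977). Sp100 encodes a nuclear body protein, and Ifi204 and Ifi211 belong to the interferon-inducible p200 family. Sp100 was at 122.3, 96.3 and 123.5 TPM in sham and at 78.45, 59.55 and 75.6 TPM in CAP libraries of day 3, and at 84.67, 76.44 and 77.14 TPM against 64.35, 45.35 and 57.2 TPM at day 6. Like Psmb8, it was lower in every CAP library than in any sham library of its day. Since Sp100 was picked for its likeness over these same 12 libraries, this is no separate evidence.

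The spaced TGACG and ATTGG module was also used to look at other genes. Outside the 10, it was found at 22 genes, 16 of which were tested. Their median log2 difference of CAP against sham was -0.04 at day 3, with 10 of 16 below 0 (beside 62.2% of all genes), and -0.10 at day 6, with 12 of 16 below 0 (beside 65.7%), near the medians of all genes. H2-M3, a further class I heavy chain among them, was at -0.44 at day 3 (unadjusted p = 0.0537, limma) and at -0.35 at day 6 (unadjusted p = 0.144). Others had smaller p values, among them Calu at -0.33 (unadjusted p = 0.0363) and Tecpr1 at 0.68 (unadjusted p = 0.043) at day 3. At day 6 Slc8a3, at -1.12 (unadjusted p = 0.00677), fell past the threshold, beside 2.34% of all genes.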

How the data were processed

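RNA of 12 wound libraries was sequenced by the authors (SureSelect XT HS2 mRNA kit, Trimmomatic 0.36 and bcl2fastq per the labels, build mm10), who deposited 1 table per library with TPM for 55487 genes; depth is unknown, and 0.0001 stands in place of 0. StringTie is named in the study's methods, and the aligner and the strand setting were not given in the sources used here. Values were analysed as log2(TPM + 0.1) with limma 3.58.1 in R 4.3.3 (intensity trend, 2-sided), keeping genes that averaged 0.3 TPM or more in each group (for the interaction, in 1 or more of 4 groups). The threshold was an unadjusted p under 0.05 and a 2-fold difference, and p values were adjusted over all genes tested by the Benjamini-Hochberg method. Single genes and ratios were also given exact permutation tests. The named genes are the 10 members, the list members past the threshold (otherwise up to 4 by p), Psmb5, Psmb6, Psmb7, Ciita, Irf1, Ifng and the 5 genes most alike, with further list members of that rule given as counts and 1 gene not reported here. Cd3e, Cd8a, Calu, Tecpr1 and Slc8a3 were named after their values were seen. The members and lists were chosen with earlier results of these data known. The fit was tested on simulated data. Alternatives were the pseudocount, filter, scaling, joint fit, replicate block, intensity trend and leaving out each library. Sequences came from GENCODE release M21 and RefSeq (GRCm38.p6), read with Python 3.11.15.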

Additional observations from a re-analysis of the deposited data

How the results depend on the processing

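The count of class I genes past the threshold was 0 of 10 in each of 80 alternative fits. Of 800 single-gene values under alternatives, 758 kept their sign and 42 turned, all of the latter with an unadjusted p of 0.479 or more. With median-ratio scaling and quantile normalization, Nlrc5 turned to 0.0393 and 0.0401 at day 3, Tap2 to 0.0066 and 0.014 in the comparison of the days, and B2m to 0.0128 and 0.0599 and Tap1 to 0.0372 and 0.034 between the days in the CAP group. H2-K1 turned to 0.0973 at day 6 with median-ratio scaling. The number of genes at an unadjusted p under 0.05 in the comparison of the days, 0 as reported, was 2 with median-ratio scaling and 1 with quantile normalization. Between the days in the CAP group it was 3 in the joint fit of 12 libraries, beside 9.7% of all genes in the lower direction. The cause was not tested.

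The sources used here do not tell whether the replicate numbers pair the samples. Same-numbered sham and CAP libraries deviated together with r of -0.16, 0.03 and 0.00 at day 3, where none correlated best with its own number. At day 6 the values were 0.04, 0.11 and 0.10, and each sham library correlated best with its own number. The highest r with another number was -0.0042, -0.0265 and -0.0073 there. With the replicate block, the count at an unadjusted p under 0.05 was 3 at day 3 (5 as reported), 5 at day 6 (4 as reported), 3 between the days in sham, 2 between the days in CAP and 2 in the comparison of the days. The share of all genes in the lower direction was 5.28% at day 3 and 15.2% at day 6. Between the days it was 8.73% in sham and 9.86% in CAP. An exact sign test over numbered pairs of the subunit ratio gave p = 0.25 at each day, its smallest value.

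Without 1 library each in turn, that count ranged from 3 to 6 at day 3, 2 to 4 at day 6, 1 to 5 between the days in sham, 0 to 2 between the days in CAP and 0 to 2 in the comparison of the days. The share of all genes in the lower direction ranged from 3.01% to 6.6% at day 3 and from 5.24% to 20.4% at day 6. Between the days it ranged from 6.03% to 7.97% in sham and from 3.27% to 9.84% in CAP. The subunit ratio ranged from -0.56 to -0.36 at day 3 and from -0.54 to -0.21 at day 6. Nlrc5 ranged from -0.1095 to 0.0349 at day 3 and from -0.0986 to 0.1375 at day 6, and H2-K1 from -0.1006 to 0.0513 at day 6. Between the days in CAP, the ranges were -0.0102 to 0.1349 (H2-K1), -0.2232 to 0.0218 (H2-D1), -0.1318 to 0.0639 (B2m) and -0.1394 to 0.1214 (Tap1). In the comparison of the days they were -0.0532 to 0.1918 (H2-D1), -0.1337 to 0.0738 (Tap2), -0.1014 to 0.1249 (Tapbp), -0.2034 to 0.0723 (Psmb8), -0.3218 to 0.0476 (Psmb9) and -0.0837 to 0.1524 (Nlrc5). Depth is unknown, so the spread of 3 libraries per group sets the precision.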
